A study of Mus musculus with 3 samples.

Results

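Plasmacytoid dendritic cells (pDCs) of the mouse spleen were measured in 3 single-cell RNA libraries. A kept barcode was called a pDC when it held 4 or more unique molecular identifiers (UMIs, each marking 1 captured RNA molecule) summed over 5 gate genes, Siglech, Cox6a2, Ccr9, Klk1 and Pacsin1. It also had to hold no UMI of the B cell gene Cd79a or the T cell gene Cd3e, and fewer than 3 UMIs of the myeloid gene Lyz2. This gate took 117 of 47453 kept cells. The control library gave 42 of 15957 cells, the Ang II library 24 of 13982 and the B6.SLE123 library 51 of 17514. Because the gate read the counts of these cells, the levels of the gate genes in them are a description.

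All mice were 12 to 14 weeks old, and T cells had been removed from the splenocytes with CD3 microbeads. Each library pooled 2 conditions of 3 mice each. The control library held male C57Bl/6 mice with sham minipumps and untreated female C57Bl/6 mice. The Ang II library held male C57Bl/6 mice that received angiotensin II (Ang II, a peptide hormone that raises blood pressure) by minipump for 2 weeks from 10 weeks of age, with or without 2HOBA. The B6.SLE123 library held female mice of the lupus-prone strain B6.SLE123, with or without 2HOBA for 6 weeks from 7 weeks of age. B6.SLE123 is a congenic strain that carries the Sle1, Sle2 and Sle3 susceptibility loci, of chromosomes 1, 4 and 7, on the C57Bl/6 background. 2HOBA (2-hydroxybenzylamine) scavenges isolevuglandins, reactive products of lipid oxidation. Cells carried 6 antibody hashtags per library, but no label ties a hashtag to a condition or to a mouse. The 2 conditions of a library were therefore pooled, and treatment with 2HOBA was not analysed here.

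With 1 library per group, no difference between libraries had a replicate check. All intervals below are 95% intervals that cover counting error only. Sex differed between the libraries along with treatment and strain. The pDCs held 52, 0 and 101 UMIs of Xist (here and below in the order control, Ang II, B6.SLE123), and 4, 15 and 0 UMIs of the Y-linked gene Eif2s3y. The part of sex in the differences below was not tested.

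pDCs are dendritic cells with a secretory, plasma cell-like shape. They sense viral and self nucleic acids through the endosomal receptors TLR7 and TLR9 and can release large amounts of type I interferon through the transcription factor IRF7. TCF4 and RUNX2 maintain their identity, and BST2 and SIGLEC-H are surface receptors used to recognise them in mice. In systemic lupus erythematosus, pDCs are studied as a source of interferon.

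The pDCs summed to 170865, 158477 and 177315 UMIs per library. Their median depth was 4069.5, 6771.5 and 3347 UMIs per cell, against 1789, 2769 and 1952 UMIs in all other kept cells. The median pDC expressed 1767, 2371.5 and 1557 genes. No barcode above the limit on detected genes carried the pDC gate. Between 415 and 496 barcode sequences were shared by each pair of libraries. Levels are given as CPM, the UMIs of a gene summed over the pDCs of a library and scaled to 1000000.

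The gate was checked against 18 other pDC markers that it did not read. The median control pDC with few NK cell UMIs detected 13.5 of these 18 markers, the median Ang II pDC 15 and the median B6.SLE123 pDC 12. Gate sums were lower in B6.SLE123, where the median pDC held 12 gate UMIs, against 28 (control) and 44.5 (Ang II). At 4 gate UMIs, just inside, lay 2 control, 0 Ang II and 2 B6.SLE123 cells. At 3 gate UMIs, just outside, lay 3, 1 and 8 cells, which detected a median of 3, 0 and 7 of the other markers. Another 11, 7 and 23 cells met the gate sum but failed the limits on Cd79a, Cd3e and Lyz2.

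Members with the markers of natural killer (NK) cells stood apart. In the control library, 4 of the 42 members carried 26 to 63 UMIs of an 8-gene NK cell list, and 1 of the 24 Ang II members carried 53. The other members of all 3 libraries carried at most 1 such UMI. All gate UMIs of these members came from Cox6a2, a muscle and pDC isoform of a cytochrome c oxidase subunit, with 24 UMIs in the 4 control cells and 6 in the Ang II cell. They detected 2 or 3 of the 18 other pDC markers, and the 4 control cells held 0 UMIs of Bst2. The 4 control cells held 75 UMIs of Gzma and 47 of Nkg7, which encode cytotoxic granule proteins, and 109 UMIs of the chemokine gene Ccl5. Among all kept cells with 5 or more NK cell UMIs and within the lineage limits, Cox6a2 was found in 9 of 542 control cells, 5 of 375 from Ang II mice and 0 of 569 from B6.SLE123 mice. The data therefore go against the pDC label for these 5 cells, and some results that rest on them are given with and without them. Another B6.SLE123 member, with no NK cell UMI and 9 gate UMIs of Siglech, Cox6a2 and Ccr9, also detected 2 other markers, with Tcf4, Irf8, Ly6d and Tyrobp at 0.

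**Figure D1:**
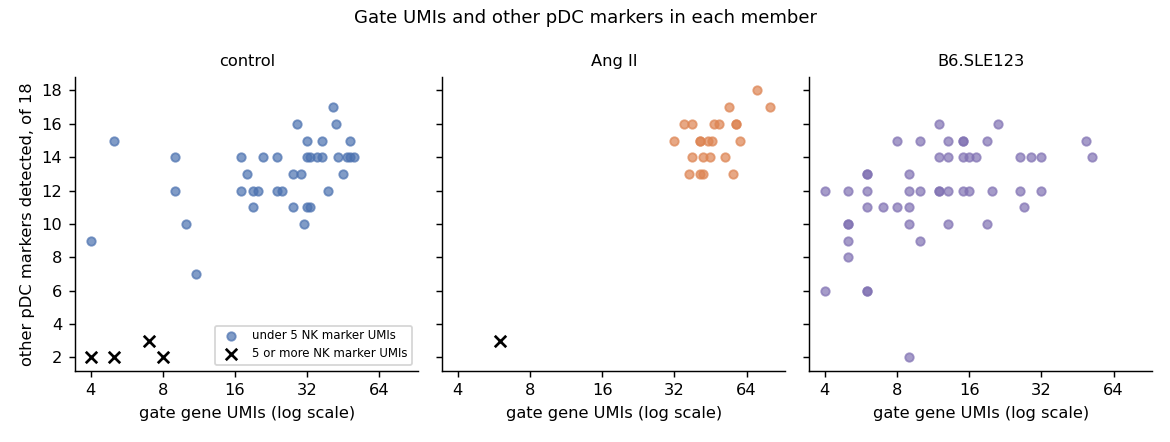
Summed UMIs of the 5 gate genes (horizontal axis, log scale) against the number of the 18 other pDC markers detected (vertical axis), with 1 point per member and 1 panel per library. Crosses are the 4 control members and the 1 Ang II member with 5 or more NK cell UMIs, which detected 2 or 3 markers.

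Bst2, Tcf4, Irf8, Runx2 and Bcl11a were at like levels in the 3 libraries, while the gate genes Siglech and Klk1, described below, were lower in B6.SLE123. Bst2, which encodes the surface receptor tetherin, was at 5419, 5042 and 5346 CPM. The log2 ratio to the control was -0.10 (-0.24 to 0.03) in Ang II and -0.02 (-0.15 to 0.11) in B6.SLE123. Every Ang II and B6.SLE123 pDC held Bst2, as did 38 of 42 control pDCs, against 12.9% to 25.6% of cells in a B cell gate of 10832 to 13209 cells with median depths of 1817 to 2806 UMIs. Tcf4, the master regulator of pDC fate, was at 972, 1029 and 953 CPM. Irf8, which dendritic cells need for their development, was at 2142, 2044 and 2126 CPM. Runx2, which guides the exit of pDCs from the marrow, was at 421, 404 and 400 CPM. Bcl11a, which acts upstream of Tcf4, was at 392, 416 and 389 CPM. The intervals of these log2 ratios to the control all included 0, in both libraries, with the members with NK cell markers counted in. The 4 control members with such markers held 0 UMIs of Bst2 and so lowered its control level. Ratios of these genes without them were not computed.

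Of 18 transcription factors listed, 8 had 50 or more UMIs over the libraries compared, and 0 of 8 differed by 2-fold from the control in either library. Over all genes with that many UMIs, 0.743% were 2-fold higher and 1.27% lower in Ang II, and 1.57% were higher and 1.37% lower in B6.SLE123. Of the 18 other pDC markers, 15 had 50 or more UMIs. Of these, 0 of 15 were 2-fold higher or lower in Ang II, while 2 of 15 were higher and 0 lower in B6.SLE123. Their summed level was 19249, 19801 and 19869 CPM. The 2 higher genes were Irf7 and Tex2. Ly6d, a surface gene of B-lymphoid and pDC progenitors, was at 3839, 3937 and 2983 CPM, with a log2 ratio of -0.36 (-0.53 to -0.20) in B6.SLE123. Cd209d was at a log2 ratio of -0.61 (-1.09 to -0.14) in Ang II. Grm8, a glutamate receptor gene, had 3, 20 and 21 UMIs, below the 50 needed in either comparison.

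The 30 genes with the highest ratio of pDCs over all other kept cells in every library were ranked by the lowest of the 3 ratios, as a description. Klk1, Siglech and Cox6a2 led the list, at a lowest log2 ratio of 9.20, 9.16 and 9.11, and are gate genes. Among genes outside the gate, Cd300c and Cd209d came first, at 8.91 and 8.25. Both encode receptors of the myeloid surface. Cd300c had 44, 48 and 48 UMIs in pDCs and was at 0.599 CPM or less in other kept cells. Cd209d was at 597, 391 and 733 CPM. The lysosomal protease gene Ctsl was at 1779, 1716 and 1421 CPM in pDCs and at most 11.9 CPM in other kept cells. The calcium pump gene Atp2a1, the enzyme gene Upb1, Pdzd4, the coreceptor genes Lag3, Cd4 and Cd8b1 and the inhibitory receptor genes Lair1, Klra17 and Ptprs were also among the 30.

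A part of this list was shared with conventional dendritic cells (cDCs). Clec10a and Cd209a, lectin genes of cDC2, were at 281 and 339 CPM in control pDCs. They were at 190 and 1457 CPM in a control cDC2 gate of 42 cells. That gate read both genes, so their levels in it are a description. P2ry14 was at 152 CPM in control pDCs, 170 in a cDC1 gate of 26 cells and 0 in the cDC2 gate. In contrast, Siglech, which the cDC gates excluded, and Cox6a2 were at 0 CPM in the control cDC1 and cDC2 gates.

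**Figure D2:**
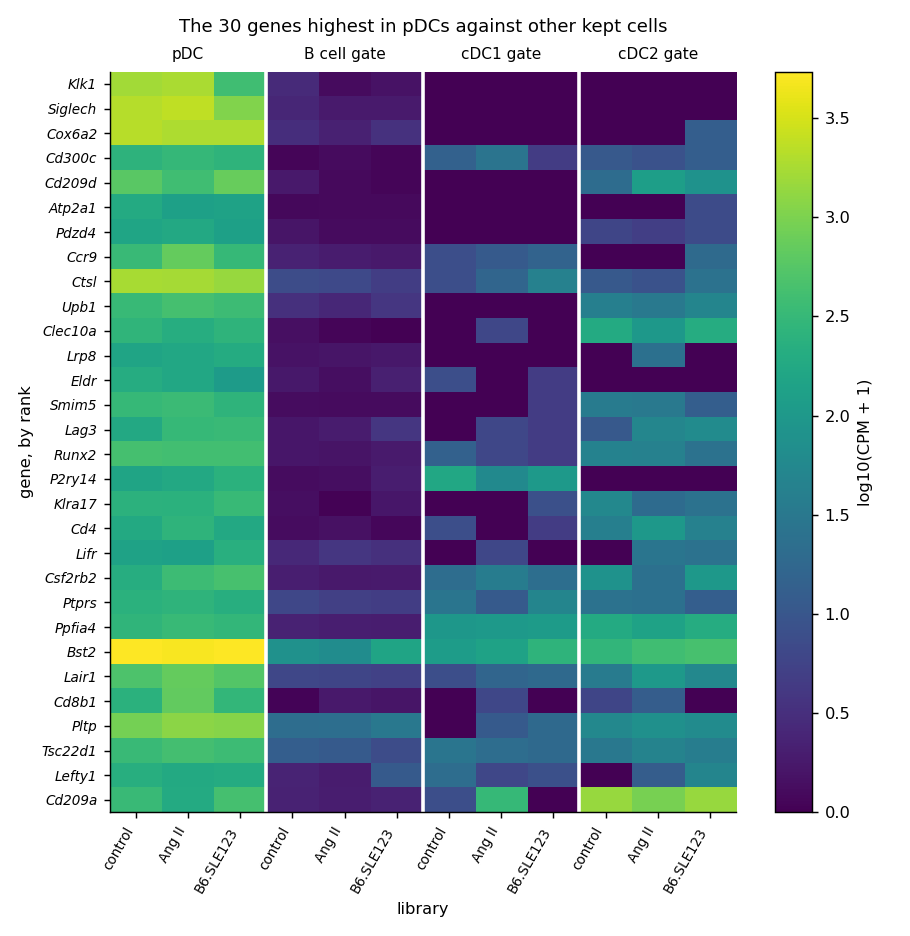
Heat map of the 30 genes highest in pDCs against all other kept cells (rows, by rank), with log10(CPM + 1) as colour in pDCs and in the B cell, cDC1 and cDC2 gates of each library (columns). Bst2 was the brightest row in pDCs, at 5042 to 5419 CPM, and Klk1 was dimmer in B6.SLE123 pDCs than in the others.

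With the limits on barcodes read as detected genes, the intervals of the ratios of pDC shares included 0. Of kept cells, pDCs were 0.263% (0.190 to 0.356) in the control library. They were 0.172% (0.110 to 0.255) with Ang II and 0.291% (0.217 to 0.383) with the B6.SLE123 genotype. The log2 ratio to the control was -0.62 (-1.40 to 0.14) in Ang II and 0.15 (-0.47 to 0.77) in B6.SLE123. Without the members with NK cell markers, the control and Ang II shares were 0.238% and 0.164%, and the log2 ratios were -0.53 and 0.29. Over the 6 hashtag populations of a library, the lowest, median and highest share were 0%, 0.276% and 0.429% in the control library. The population at 0 held 1902 cells, which allows a share of up to 0.158%. They were 0.0839%, 0.146% and 0.313% with Ang II and 0.176%, 0.276% and 0.440% for B6.SLE123. These ranges overlapped. The study words its limits as RNA counts. Read as UMIs, they left 11 pDCs of 13909 control cells, 0 of 9724 Ang II cells and 28 of 13849 B6.SLE123 cells. These 11 and 28 cells were all among the pDCs counted above, so this reading added no pDC and removed those of higher depth. The median depth of all pDCs was 4069.5 UMIs in the control, 6771.5 in Ang II and 3347 in B6.SLE123. The lowest Ang II pDC held 4478 UMIs. The log2 ratio in B6.SLE123 was then 1.35 (0.30 to 2.51), beyond counting error but over pDCs of lower depth only. The part of depth in this ratio was not tested.

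**Figure D3:**
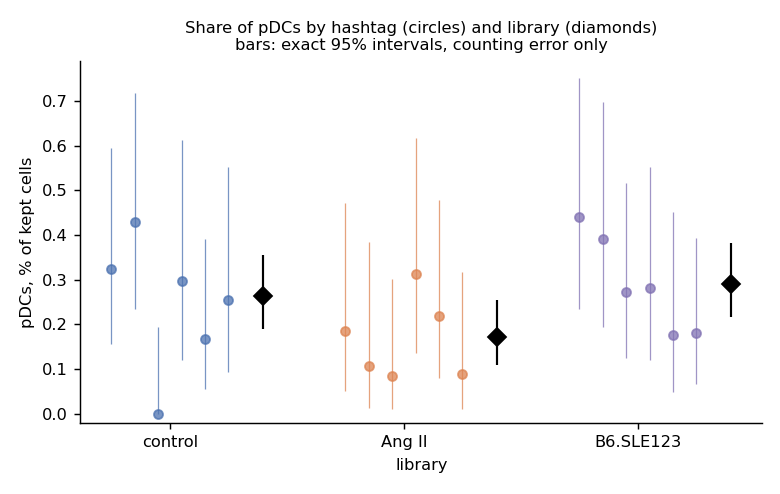
pDCs as a percentage of kept cells, for each of the 6 hashtag populations (circles) and the whole library (diamonds). Bars are exact 95% intervals for counting error, and the 3 library intervals overlap.

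The machinery that senses nucleic acids was detected in all 3 libraries. Tlr7, the receptor for single-stranded RNA, had 11, 17 and 13 UMIs. Tlr9, the receptor for unmethylated DNA, had 13, 18 and 10 UMIs, while Tlr3 and Tlr8 had 0. Unc93b1, the chaperone that carries these receptors to endosomes, was far more abundant, at 720, 877 and 840 CPM. The cathepsin gene Ctsb, whose product cleaves proteins in the endosome, was at 1767, 2145 and 2042 CPM. Slc15a4, a lysosomal transporter required for TLR7 and TLR9 signalling, had 12, 18 and 32 UMIs, with a log2 ratio of 1.36 (0.37 to 2.45) in B6.SLE123. It did not have the 50 UMIs that the size rule asks for.

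Of 4 sensing genes with 50 or more UMIs, 0 of 4 were 2-fold higher in Ang II, and 1 of 4, Irf7, in B6.SLE123. The summed level of the 19 sensing genes was 5016, 5919 and 5843 CPM. This was a log2 ratio of 0.24 (0.10 to 0.37) in Ang II and 0.22 (0.09 to 0.35) in B6.SLE123. Of these sums, Irf7 gave 164, 240 and 744 CPM, Ctsl 1779, 1716 and 1421 CPM and Ctsb 1767, 2145 and 2042 CPM. The B6.SLE123 ratio thus includes the Irf7 difference, and a rise of the list without Irf7 was not tested.

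Interferon transcripts were not detected. All 17 listed interferon genes, of alpha, beta and lambda type, were at 0 UMIs in the pDCs of all 3 libraries, which allows up to 17.6, 18.9 and 16.9 CPM each. Il6, Il12b, Il10 and Cxcl10 were at 0 as well. Of the list of interferons and cytokines, only Tgfb1, which encodes a regulatory cytokine, passed 50 UMIs, with 52, 64 and 49. The receptor genes Ifnar1 and Ifnar2 were expressed, Ifnar2 at 433, 404 and 479 CPM. Of 4 genes of interferon reception with 50 or more UMIs, 0 of 4 were past 2-fold in either library.

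The comparison of the B6.SLE123 library with the control library bears on the lupus-prone genotype, but sex and 2HOBA treatment differed between the libraries as well. Among 1021 genes with 50 or more UMIs over both libraries, 16 were 2-fold or more higher in B6.SLE123 pDCs (1.57%) and 14 were 2-fold or more lower (1.37%). The median log2 ratio of all 1021 genes was 0.02. Without the 4 control members with NK cell markers, 26 genes were past 2-fold, 23 of them among these 30. Of the chromosomes that carry the Sle loci, 0 of 64 such genes were past 2-fold on chromosome 1, 1 of 65 (1.54%) on chromosome 4 and 4 of 91 (4.40%) on chromosome 7. The highest share of any chromosome was 4 of 36 (11.1%), on chromosome 13. These 4 were Gm21762, Hmgcs1, Ftl1-ps1, whose value is uncertain, and Gzma, which rested on the control members with NK cell markers. The chromosome counts leave out the gate genes, of which Siglech, Klk1 and Cox6a2 lie on chromosome 7.

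Ifitm2 gave the widest difference. It encodes an interferon-induced membrane protein that restricts the entry of viruses into cells (chr7:140954837-140955987). B6.SLE123 pDCs held 813 UMIs of Ifitm2, against 2 in control and 1 in Ang II pDCs, or 4585, 11.7 and 6.31 CPM. It was detected in 51 of 51 B6.SLE123 pDCs, from 1 to 48 UMIs with a median of 16, and in 1 of 42 control and 1 of 24 Ang II pDCs. The hashtag populations of B6.SLE123 ranged from 2117 to 6693 CPM and those of the control from 0 to 105 CPM, with no overlap. Control values by hashtag are over 5 populations, since the sixth held no pDC. The log2 ratio was 8.61 (6.76 to 11.66). It was not particular to pDCs. Ifitm2 was in 96.3% of B6.SLE123 cells of the B cell gate, at a log2 ratio of 8.90, and the ratio was 4.65 in the cDC1 and 1.41 in the cDC2 gate. The part of free RNA in the pDC counts was not tested. Its neighbour Ifitm3 had 5, 2 and 29 UMIs in control, Ang II and B6.SLE123 pDCs. Ifitm1 had 0, 0 and 19 UMIs, at least 6.10-fold higher in B6.SLE123 than the floor of 3 control counts, in 15.7% of B6.SLE123 pDCs against 69.4% of cells in the B cell gate.

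Irf7, the master regulator of the type I interferon response (chr7:141262706-141266481), was sixth in the order of higher genes, after Ifitm2, S100a9, Ftl1-ps1, Gm42031 and Vim. Irf7 had 28, 38 and 132 UMIs, or 164, 240 and 744 CPM, in control, Ang II and B6.SLE123 pDCs. It was detected in 18 of 42, 18 of 24 and 34 of 51 pDCs, against 2.84%, 4.86% and 3.36% of cells in the B cell gate. The hashtag populations ranged from 115 to 219 CPM in the control and from 450 to 1178 CPM in B6.SLE123, with no overlap. The log2 ratio was 2.18 (1.59 to 2.83) in B6.SLE123 and 0.55 (-0.19 to 1.31) in Ang II. On the same scale, Irf7 was at 0.00 in the B cell gate, 1.34 in the cDC1 gate and 1.35 in the cDC2 gate. The B6.SLE123 cDC1 gate held neutrophil markers at 15955 CPM, against 20.4 in the control cDC1 gate, and their part in the cDC1 ratios was not tested.

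The interferon response list held 28 genes of the files. Of its 4 members with 50 or more UMIs, 1 was 2-fold higher in B6.SLE123 and 0 in Ang II. The higher gene was Ifi27l2a, an interferon-induced gene of mitochondrial and nuclear membranes, with 124, 125 and 277 UMIs or 726, 789 and 1562 CPM. The log2 ratio of Ifi27l2a was 1.11 (0.80 to 1.42) in B6.SLE123, and 0.99 without the control members with NK cell markers. Its hashtag populations, 438 to 954 CPM in the control and 589 to 3044 CPM in B6.SLE123, overlapped. The ubiquitin-like modifier gene Isg15 had 17, 13 and 25 UMIs. The median log2 ratio of the 7 members with 20 or more UMIs was 0.50 in B6.SLE123, where the median over all 2662 such genes was 0.02. In Ang II it was 0.06 over 6 members, where the median over all genes was -0.02. Summed over the list, the level was 1844, 2171 and 3153 CPM, a log2 ratio of 0.24 (0.01 to 0.46) in Ang II and 0.77 (0.57 to 0.98) in B6.SLE123. Ifi27l2a gave 124, 125 and 277 of the 315, 344 and 559 UMIs in these sums. The sum without Ifi27l2a was not tested. The B6.SLE123 median was 0.13 when each cell had the same weight and 0.19 when cells were chosen by the other pDC markers. It was 0.081 without control hashtag C0302, and -1.32, over 4 members, with the limits on barcodes read as UMIs. Samhd1, an antiviral nucleotide hydrolase gene outside the list, had 21, 21 and 46 UMIs.

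**Figure D4:**
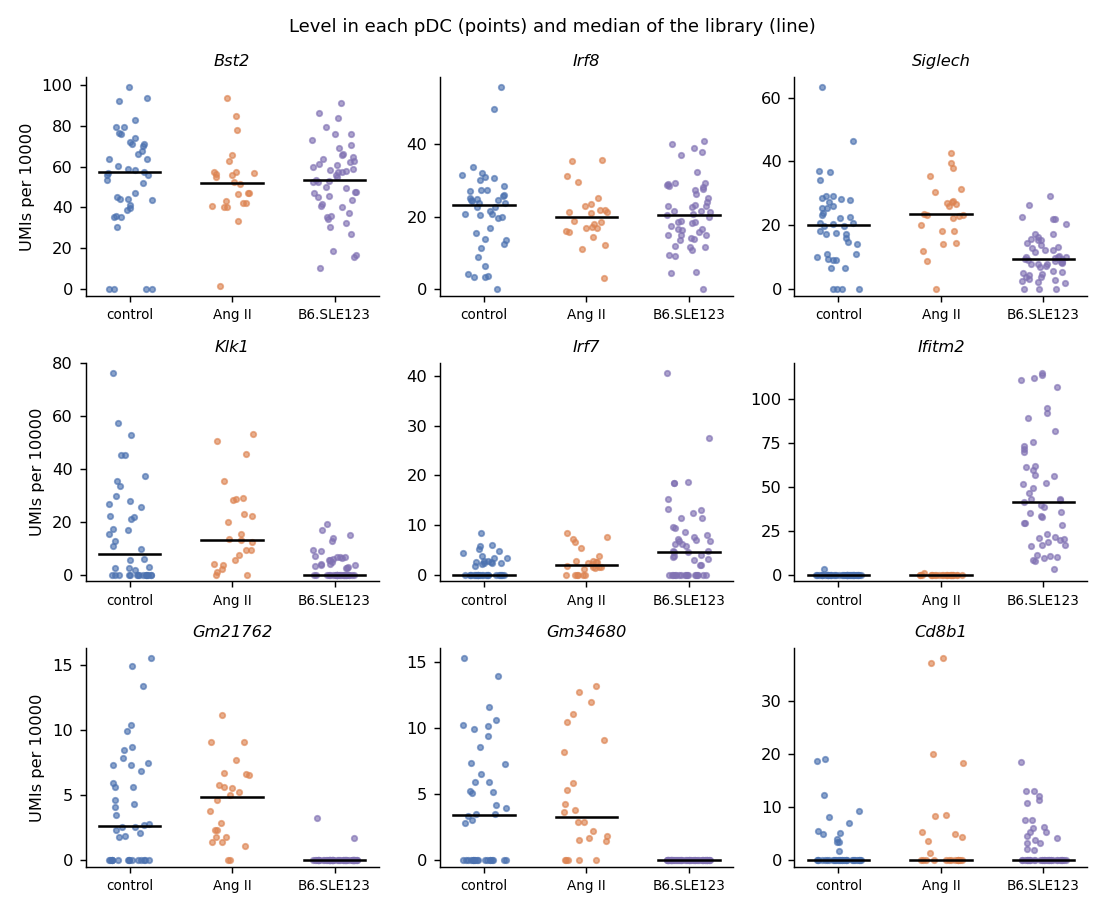
UMIs per 10000 in each pDC (points) and the median of each library (line) for 9 genes. Bst2 and Irf8 overlap throughout, Ifitm2 is above 0 in all 51 B6.SLE123 pDCs, and Gm34680 is at 0 in all of them.

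The 250 bases upstream of Ifitm2, Irf7 and Bst2 are shown because the first 2 of these genes were higher in B6.SLE123 and Bst2 was not. Sequences are those of RefSeq on GRCm38.p6, 5′ to 3′ on the strand of the gene. Capitals mark matches to GAAA, then 2 bases of any kind, then GAAA, a motif of the interferon-stimulated response element that was searched on both strands.
Ifitm2: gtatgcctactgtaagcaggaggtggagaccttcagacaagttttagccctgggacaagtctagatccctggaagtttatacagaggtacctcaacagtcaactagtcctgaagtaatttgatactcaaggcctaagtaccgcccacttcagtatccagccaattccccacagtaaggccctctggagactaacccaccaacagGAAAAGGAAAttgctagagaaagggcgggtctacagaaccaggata
Irf7: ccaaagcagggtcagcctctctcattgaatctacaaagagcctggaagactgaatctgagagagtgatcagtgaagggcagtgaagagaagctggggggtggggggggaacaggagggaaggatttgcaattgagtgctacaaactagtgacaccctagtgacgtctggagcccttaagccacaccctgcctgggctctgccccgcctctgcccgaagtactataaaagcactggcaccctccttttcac
Bst2: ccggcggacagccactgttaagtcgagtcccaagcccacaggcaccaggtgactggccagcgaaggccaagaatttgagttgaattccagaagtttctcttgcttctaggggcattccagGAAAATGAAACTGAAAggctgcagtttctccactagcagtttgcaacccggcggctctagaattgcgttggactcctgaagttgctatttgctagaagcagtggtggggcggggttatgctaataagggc
The Ifitm2 sequence (chr7:140955962-140956211, minus strand) held 1 match, and the Irf7 sequence (chr7:141266425-141266674, minus strand) held 0. The Bst2 sequence (chr8:71537473-71537722, minus strand) held 2 matches that overlap. Of 32851 promoters of the same length, 978 (2.98%) held the motif, as did 8 of 21 of the interferon response list and 4 of 15 of the other pDC markers with an entry. A match is not a binding site, and the lack of one says only that these letters are not in the window.

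Among the other genes higher in B6.SLE123 pDCs, Vim and S100a9 had much of their counts in few cells. Vim, which encodes the intermediate filament vimentin, had 20, 40 and 105 UMIs in control, Ang II and B6.SLE123 pDCs, of which 2 B6.SLE123 cells held 42. Another gate took cells with 8 or more of the 18 other pDC markers, in place of the gate genes. There Vim had 14, 175 and 230 UMIs. Its log2 ratios were 3.46 in Ang II and 3.73 in B6.SLE123, against 1.11 and 2.34 in the members. All Ang II and B6.SLE123 members together held 40 and 105 UMIs, so most of the 175 and 230 came from cells outside the members. S100a9, a calcium-binding protein gene of neutrophils, had 2, 6 and 52 UMIs, but 2 B6.SLE123 cells held 44 of the 52 and only 9 of 51 cells had any. The 8 neutrophil markers summed to 3, 16 and 98 UMIs in the pDCs, and their part in this result was not tested. Csf2rb2, an interleukin-3 receptor chain gene, had 36, 58 and 78 UMIs and a log2 ratio of 1.06 (0.47 to 1.67) in B6.SLE123. Txn1, the thioredoxin gene, had 16, 35 and 41 UMIs and was past 2-fold in both libraries, which share the control. The noncoding Gm42031 had 5, 28 and 47 UMIs, with a log2 ratio of 3.18 (1.86 to 4.87) in B6.SLE123 pDCs and 2.82 in all other kept cells. Tex2, Ppp1cc, Ywhah, Mlec, Ddit4 and Hmgcs1 made up the rest, at 36 to 52 UMIs in B6.SLE123 and log2 ratios of 1.02 to 1.17.

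The ferritin light chain gene Ftl1 and its copy Ftl1-ps1 differed in opposite directions. Ftl1 had 388, 347 and 108 UMIs and Ftl1-ps1 had 5, 12 and 105 UMIs in control, Ang II and B6.SLE123 pDCs. The log2 ratio in B6.SLE123 was -1.90 (-2.22 to -1.59) for Ftl1 and 4.34 (3.07 to 5.99) for Ftl1-ps1. All other kept cells gave -1.01 and 4.61. The sequences are near-identical, so reads could have been split between them, and both values are uncertain.

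Several genes were lower in B6.SLE123 pDCs. Gm34680 (chr16:32550211-32553708), a noncoding gene, had 68, 78 and 0 UMIs, at least 23.5-fold lower in B6.SLE123 than in the control. It was found in 24 of 42, 19 of 24 and 0 of 51 pDCs. Gm21762 (chr13:120214593-120215947) had 68, 69 and 2 UMIs, in 27, 22 and 2 cells, and a log2 ratio of -5.14 (-8.22 to -3.23). In all other kept cells, Gm21762 had 24, 15 and 0 UMIs and Gm34680 had 115, 229 and 0 UMIs over all those cells.

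Romo1, Pet100, Ndufb2 and Ndufa3 encode a regulator of reactive oxygen, an assembly factor of cytochrome oxidase and 2 subunits of complex I. They were at 263, 228, 222 and 427 CPM in control pDCs and 95.9, 84.6, 95.9 and 209 CPM in B6.SLE123 pDCs, with log2 ratios of -1.46, -1.43, -1.21 and -1.03. These 4 genes were set side by side after their values were seen. Dpm3, Celf2, Pgls and Rpgrip1 were lower too, at log2 ratios of -1.34, -1.25, -1.17 and -1.10. With Ftl1, the genes Gzma, Ccl5 and AW112010 completed the 14 lower genes, at 76, 109 and 74 control UMIs against 1, 2 and 2 in B6.SLE123. Without the 4 control members with NK cell markers, these 3 genes had 1, 0 and 2 control UMIs.

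**Figure D5:**
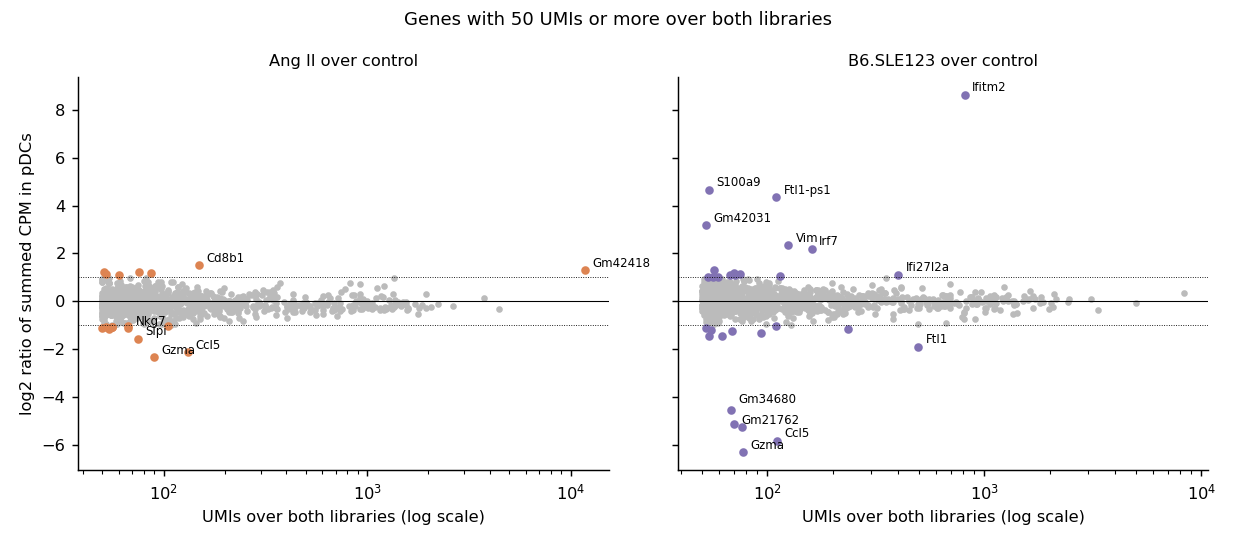
log2 ratio of summed CPM in pDCs (vertical axis) against UMIs over both libraries (horizontal axis, log scale), for Ang II and B6.SLE123 over the control, with 1 point per gene of 50 UMIs or more. Dotted lines mark 2-fold, coloured points lie past it, and Gm34680, at 0 in B6.SLE123, is drawn at its floor of 3 counts. Ifitm2 is the highest point, and Gzma and Ccl5 are the lowest.

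Levels of the gate genes were read in cells chosen without them. A second gate asked for 8 or more of the 18 other pDC markers and kept the lineage limits. It took 37, 27 and 54 cells, and 37, 23 and 47 of them were members. Siglech, an inhibitory lectin receptor gene (chr7:55768178-55778925), was at 2242, 2114 and 949 CPM in all cells of the second gate. Its log2 ratio there was -1.24 (-1.51 to -0.98) in B6.SLE123. Siglech was detected in 37 of 37, 24 of 27 and 47 of 54 cells. Klk1, a tissue kallikrein gene (chr7:44225360-44229618), was at 1782, 1593 and 356 CPM. Klk1 was found in 26 of 37, 22 of 27 and 24 of 54 cells, with a log2 ratio of -2.32 (-2.73 to -1.94) in B6.SLE123. In the members, the B6.SLE123 log2 ratios were -0.98 (-1.24 to -0.72) for Siglech, under 2-fold, and -2.07 (-2.48 to -1.69) for Klk1. Klk1b27, a neighbour of Klk1 in the same kallikrein family, had 18, 25 and 1 UMIs in the members, and reads could be split between such close paralogs.

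The other gate genes differed less from the control in B6.SLE123, where Pacsin1 was higher rather than lower. Cox6a2 was at 2140, 1626 and 1717 CPM in the cells of the second gate. Its log2 ratio there was -0.40 (-0.63 to -0.16) in Ang II and -0.32 (-0.54 to -0.09) in B6.SLE123. In the members it was -0.19 (-0.42 to 0.04) and -0.16 (-0.37 to 0.06). The 27 Ang II cells of the second gate held 290 Cox6a2 UMIs, as did the 23 members among them. The cells outside the members thus added to the total behind the CPM but not to Cox6a2. Ccr9, the receptor that guides pDCs to the gut and thymus, was at 351, 639 and 289 CPM, with a log2 ratio of 0.86 (0.39 to 1.36) in Ang II. In the members, the Ccr9 ratio in Ang II was 1.11 (0.64 to 1.59), past 2-fold. Pacsin1, an endocytosis adaptor gene, was at 262, 247 and 392 CPM. In the cells of the second gate, the log2 ratio of Ifitm2 in B6.SLE123 was 8.42. The second gate read Irf7 and was chosen after the data were seen. Whether depth or sex moved these values was not tested.

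The comparison of the Ang II library with the control library bears on Ang II-induced hypertension, but sex and 2HOBA treatment differed between the libraries as well. Among 942 genes with 50 or more UMIs over both libraries, 7 were 2-fold or more higher in Ang II pDCs (0.743%) and 12 were 2-fold or more lower (1.27%). The median log2 ratio of all 942 genes was -0.07. Without the members with NK cell markers, 16 genes were past 2-fold, 12 of them among these 19.

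Cd8b1, a coreceptor chain gene that some mouse pDCs express, gave the highest ratio but not in all cells. It had 41, 108 and 53 UMIs, or 240, 681 and 299 CPM. The log2 ratio was 1.51 (0.97 to 2.06) in Ang II. Of the 108 UMIs, 86 came from a single hashtag population of 8 pDCs, and 57 from 2 cells. Outside that population Cd8b1 was at 213 CPM, and without it the log2 ratio was -0.17. All other kept cells held 26, 1120 and 35 UMIs of Cd8b1.

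The other higher genes were less concentrated in single cells than Cd8b1. Even so, 2 cells held 16 of the 40 Ang II UMIs of Vim and 2483 of the 8149 of Gm42418. Gm42418, a noncoding gene that overlaps ribosomal RNA sequence, was at 20940, 51421 and 26997 CPM, with a log2 ratio of 1.30 in Ang II pDCs and 0.63 in all other kept cells. Gpi1, an enzyme gene of glycolysis, had 24, 52 and 42 UMIs. Litaf, a lysosomal membrane protein gene, had 28, 59 and 54 UMIs, and Pml, the nuclear body gene, had 17, 35 and 16 UMIs. Their log2 ratios in Ang II were 1.22 (0.50 to 1.99), 1.18 (0.51 to 1.89) and 1.15 (0.28 to 2.08). Without cells that held UMIs of other lineages, Pml was at -1.02. Vim and Txn1 were the remaining genes, at 1.11 and 1.24. Vim was at 3.46 in cells chosen by the other pDC markers, where most of its UMIs came from cells outside the members. Mapkapk2, Atp6v1d and Nfkbia were close to the limit, at 0.99, 0.98 and 0.98.

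Among the lower genes of Ang II pDCs, Slpi was the lowest that did not rest on the members with NK cell markers. Slpi, a secreted protease inhibitor gene, had 57, 18 and 76 UMIs, or 334, 114 and 429 CPM. It was found in 19 of 42, 9 of 24 and 25 of 51 pDCs. The hashtag populations overlapped, at 76.3 to 583 CPM in the control and 0 to 181 CPM in Ang II. The log2 ratio was -1.55 (-2.41 to -0.77), and -0.43 without cells that held UMIs of other lineages. Slpi is also on the plasma cell list, which summed to 92, 44 and 96 UMIs in the pDCs, and the part of such RNA was not tested. Ndufb2, AC149090.1, Lamtor2, Srsf9, Mrps14, Eid1, Mif and Ndufa2 were at log2 ratios of -1.14 to -1.02, each with 33 or fewer UMIs in Ang II. Gzma, Ccl5 and Nkg7 had 76, 109 and 47 control UMIs and 14, 23 and 20 Ang II UMIs, all but 1 control UMI of them in the 5 members with NK cell markers.

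Of the antigen presentation list, 0 of 10 members with 50 or more UMIs were past 2-fold in either library. Cd74, the invariant chain gene, was at 14889, 11888 and 13986 CPM. The MHC class II genes H2-Aa, H2-Ab1 and H2-Eb1 were at 4097, 2007 and 1832 CPM in the control and 3187, 1363 and 1338 CPM in Ang II pDCs. Their log2 ratios in Ang II were -0.36, -0.56 and -0.45. The class I genes H2-K1 and H2-D1 were at -0.08 and -0.10. Summed over the list, the log2 ratio was -0.29 (-0.35 to -0.23) in Ang II and -0.09 (-0.14 to -0.04) in B6.SLE123. The hashtag populations of the summed list overlapped, at 29524 to 37289 CPM in the control and 13759 to 35316 CPM in Ang II.

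Genes that mark subsets of pDCs were mostly alike. Ly6a, the gene of the surface protein Sca-1, was at 2013, 1830 and 1782 CPM. Ly6c2, a surface protein gene of mature pDCs, was at 2323, 2814 and 2634 CPM. Dntt, the gene of terminal deoxynucleotidyl transferase of lymphoid progenitors, had 40, 19 and 9 UMIs, in 20, 13 and 7 pDCs. Its log2 ratio was -0.97 (-1.84 to -0.14) in Ang II and -2.21 (-3.43 to -1.14) in B6.SLE123, with 49 UMIs over both libraries and so below the limit of 50. Of the subset genes with 50 or more UMIs, 1 of 6 was past 2-fold in Ang II, Cd8b1, and 0 of 5 in B6.SLE123.

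Of 18 listed genes that restrain pDC activation, 7 had 50 or more UMIs, and 0 of 7 were past 2-fold in either library. Pirb, an inhibitory receptor gene below that limit, had 10, 10 and 27 UMIs and a log2 ratio of 1.38 in B6.SLE123. Tyrobp and Fcer1g, genes of signalling adaptors, were at 6479, 5326 and 5482 CPM and at 1498, 1426 and 1404 CPM. The log2 ratio of Tyrobp was -0.28 (-0.41 to -0.15) in Ang II and -0.24 (-0.37 to -0.12) in B6.SLE123. Lair1, a collagen receptor gene, was at 486, 719 and 541 CPM, a log2 ratio of 0.57 (0.15 to 0.99) in Ang II. Among homing and adhesion genes the count was 0 of 5, with the adhesion ligand gene Selplg at 544, 574 and 558 CPM. Among secretory pathway genes it was 0 of 9, with the chaperone gene Hspa5 at 456, 530 and 558 CPM.

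Markers of other lineages were low but not absent in the pDCs. Ighm, the heavy chain gene of IgM, had 117, 77 and 110 UMIs and Igkc, the kappa light chain gene, had 36, 26 and 51 UMIs. The ratio of Ighm to Igkc UMIs was 3.25, 2.96 and 2.16 in pDCs and 1.51, 1.23 and 1.19 in the B cell gate. The 9 T cell markers held 44, 112 and 58 UMIs, of which Cd8b1 gave 41, 108 and 53. The 12 cDC markers held 150, 98 and 177 UMIs, led by Cd209a with 58, 30 and 77 and by Clec10a with 48, 33 and 48. The cDC1 gene Clec9a had 17, 16 and 27 UMIs and Xcr1 had 0. Monocyte and macrophage markers held 1, 0 and 6 UMIs and erythroid markers 2, 1 and 1. Platelet markers and basophil and mast cell markers were at 0 in all 3 libraries.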

How the data were processed

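Counts were deposited by the authors as 1 matrix of UMI counts per library, from 10x Genomics 5′ libraries, with mm10 in the submitters' processing notes. The headers name Cell Ranger 6.0.0. The counts hold 32285 genes and 6 hashtags, with no normalization. The files held 0 columns of other series.

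Barcodes with 201 to 3499 detected genes, under 15% mitochondrial UMIs and a top hashtag at 3 times the second or more were kept. The study states limits of RNA counts, which were read here as detected genes. Hashtag doublets were removed by the ratio, and no other doublet caller was run. The B cell gate asked for 2 or more Cd79a UMIs, and the cDC gates for 3 or more UMIs of their markers. These were Xcr1, Clec9a, Cadm1 and Itgae for cDC1 and Clec4a4, Cd209a, Clec10a and Mgl2 for cDC2. UMIs were summed over the pDCs of a library and scaled to CPM. Comparisons took genes with 50 or more UMIs over both libraries, leaving out gate, immunoglobulin and T cell receptor segment, Y-linked and Xist genes, and 2-fold was a limit of size, not a test. List medians took members with 20 or more UMIs. The genes named were the 10 highest and 10 lowest per comparison, the 30 leading genes of pDCs, and examples of each list. Genes past 2-fold beyond these, Klk1b27, Dntt and Slc15a4 were named after their values were seen.

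Intervals at 95% are Clopper-Pearson for shares, exact Poisson for CPM and exact conditional for ratios. A limit for a count of 0 is 3 counts. The members and gene lists were chosen with earlier results of these data known. Scripts were tested on simulated data. Python 3.11.15, numpy 2.4.6, scipy 1.17.1, pandas 2.3.3, R 4.3.3 and edgeR 4.0.16 (TMM factors only) were used. Gene positions are of GENCODE release 21 for mouse, on GRCm38, in which 32235 of the 32285 genes matched. Alternatives were TMM scaling, other limits on UMIs, equal weight per cell, other gates and the loss of each hashtag population. Some list members are not reported here.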

Additional observations from a re-analysis of the deposited data

How the results depend on the processing

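No paired analysis was possible because each group was 1 library. Scaling by TMM kept the same 19 genes past 2-fold in Ang II and the same 30 in B6.SLE123. The counts followed the limit on UMIs over both libraries. At 1 UMI they were 2018 and 2183, at 20 UMIs 196 and 224, and at 100 UMIs 4 and 10, since more or fewer genes were compared. Of these, 36.8% were higher in Ang II and 53.3% in B6.SLE123 at 50 UMIs, against 59.0% and 39.4% at 1 UMI. Without cells that held UMIs of other lineages, 18 genes of 378 compared were past 2-fold in B6.SLE123, 7 of them among the 30, and 20 of 265 in Ang II, 2 of them among the 19. With the limits on detected genes read as limits on UMIs, no Ang II pDC was left and the B6.SLE123 count was 14. The log2 ratio of the B6.SLE123 pDC share was then 1.35, over pDCs of lower depth only, and the part of depth in it was not tested. The interferon response median in Ang II was 0.47 at 100 UMIs and 0.67 without cells of other-lineage UMIs. In B6.SLE123 it was 0.81 at 100 UMIs, 0.85 at 1 UMI, 0.13 with equal weight per cell, -1.32 with the limits read as UMIs and 0.19 in the gate of 8 other pDC markers.

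Leaving out each hashtag population in turn gave 12 to 24 genes past 2-fold in Ang II, with 12 without control hashtag C0302, and 25 to 35 in B6.SLE123. The interferon response median ranged from -0.15 to 0.28 in Ang II and from 0.081, without control hashtag C0302, to 0.63 in B6.SLE123. The log2 ratio of the pDC share ranged from -0.91 to -0.36 in Ang II and from -0.04 to 0.40 in B6.SLE123. Single genes that reversed were Pml in Ang II, at -1.02 without cells of other-lineage UMIs, Cd8b1 in Ang II, at -0.17 without 1 Ang II population (-0.17 to 1.93 over all populations), and AW112010 in B6.SLE123, at 1.01 in the gate of 8 other markers. That gate and the loss of members with NK cell markers were chosen after the data were seen. Beyond what is stated, the cause was not tested. Depth limits all values: 24 to 51 pDCs per library leave genes under about 50 UMIs with wide intervals.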

Other observations

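Gene families that lie near lupus susceptibility loci on chromosome 1 were measured in pDCs as well. The SLAM family of lymphocyte receptors summed to 691, 429 and 609 CPM in pDCs of the control, Ang II and lupus-prone mice. Its log2 ratio was -0.69 (-1.14 to -0.24) in Ang II and -0.18 (-0.57 to 0.21) in B6.SLE123. Cd48, its most abundant member, had 38, 18 and 44 UMIs. The Ifi200 family of nucleic acid sensors summed to 538, 606 and 637 CPM, and 0 of 2 members with 50 or more UMIs were past 2-fold in either library. Within it, Ifi209 had 14, 29 and 13 UMIs and Ifi203 had 30, 26 and 42 UMIs.

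Immediate early and stress genes summed to 1469, 1893 and 1726 CPM in pDCs, with log2 ratios of 0.37 (0.12 to 0.61) in Ang II and 0.23 (-0.01 to 0.48) in B6.SLE123. The heat shock gene Hspa1b had 7, 27 and 14 UMIs. Genes of transitional dendritic cells summed to 936, 726 and 643 CPM, most of it from the cytoskeletal gene Crip1 with 122, 97 and 87 UMIs, while Axl and Tppp3 were at 0. Growth and survival genes summed to 983, 1085 and 1026 CPM, led by the cytokine receptor gene Il7r with 54, 57 and 47 UMIs. Cell cycle genes were low, with Mki67 at 0, 0 and 3 UMIs. B cell markers summed to 171, 118 and 179 UMIs. None of these values has a replicate check.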
